A study of Schmidtea mediterranea with 9 samples.

Results

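The comparison concerns the general response of planarian stem cells to injury, whatever the site of the wound. Its members are the 6 libraries made 48 h after an amputation, taken as 1 wounded group, and the 3 libraries made at 0 h from uninjured animals; these are all 9 libraries of the series. All animals were of the asexual strain of the freshwater planarian Schmidtea mediterranea and had been starved. Head amputation gave the anterior wound (3 libraries), and amputation of the tail with the pharynx gave the posterior wound (3 libraries). In every group the tissue in front of the pharynx was dissociated, stained for DNA content and viability, and sorted for the X1 gate, live neoblasts that have replicated DNA. Uninjured animals were sampled at 0 h alone, so injury and elapsed time cannot be told apart. The labels do not say how many animals went into a library.

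Neoblasts are the dividing cells of the adult planarian and the source of every new cell in a regenerate. Injury anywhere first calls up a wound programme in the differentiated tissue and a wave of neoblast division across the body, and a missing body part is followed by a later, more local wave in which neoblasts turn on genes of particular lineages. Libraries of poly(A) RNA from the X1 gate read this population as a whole, so a transcript used by few neoblasts appears at a low level, and a larger share of cells that use it cannot be told apart from more RNA per cell. Reads were counted on assembled contigs, and the contigs of 1 component, the assembler's nearest unit to a gene, were summed. The files do not pair components with gene names. The X1 label could therefore not be checked against stem cell markers, and components are described by identifier (at most 2 in each direction) or by the length of their longest contig.

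The libraries held between 14674800 and 23700877 mapped reads. Control replicate 1 had the fewest, with 11.4% of its reads unmapped, against 3.96% to 5.46% in the other 8 libraries. On the first principal component of the log2 levels, which held 37.6% of the variance, control replicates 1 and 2 lay at -71.9 and -46.6, control replicate 3 at 37.8, and the wounded libraries between -23.3 and 82.1. Control replicate 3 thus lay among the wounded libraries, and posterior replicate 3 lay at the far end. None of 5 library measures passed an exact two-sided permutation test of wounded against control libraries. The test ran over the 84 ways to choose the controls, and its smallest possible p is 0.0119. After adjustment over the 5, a measure alone at that p would still miss the threshold, however large its difference. That none passed therefore does not show the libraries to be alike. The lowest p was 0.0952 (adjusted 0.476 over the 5), for the share of unmapped reads, which averaged 7.04% ± 3.78 (SD, n = 3) in the controls and 4.62% ± 0.557 (SD, n = 6) in the wounded libraries.

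With both wounds pooled, a handful of transcripts rose above the uninjured level, and none was called lower. Of 21322 components tested, 6 rose (0.0281% of those tested) and 0 (0%) fell, at an adjusted p under 0.05 (edgeR quasi-likelihood test, p adjusted by Benjamini-Hochberg over all components). Each of the 6 was higher in all 6 wounded libraries than in any control, as were 358 (1.68%) of all components tested. The largest rise was 5.46-fold and the smallest 1.69-fold. Together the 6 components held between 0.0143% and 0.0188% of the mapped reads of a control library, and between 0.0355% and 0.0662% of those of a wounded one.

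The rise that held most widely was that of comp11581_c0, a component of 1 contig of 1307 bases. Its level, in CPM (counts scaled to library size, here with a correction by the trimmed mean of M values, TMM), was 2.28, 3.70 and 4.27 CPM in control replicates 1 to 3. It was 15.1, 15.5 and 16.3 CPM after the anterior wound, and 18.8, 15.5 and 15.1 CPM after the posterior wound. The 6 wounded libraries lay close together, and the lowest of them was 3.53 times the highest control. These levels rest on 35 to 99 reads in a control library and 261 to 339 reads in a wounded one. The mean rose from 3.42 ± 1.02 CPM (SD, n = 3) to 16.0 ± 1.41 CPM (SD, n = 6), a log2 fold change of 2.22 (SE 0.20, edgeR adjusted p = 0.00304), or 4.65-fold with a 95% interval from 3.43 to 6.31. With any 1 library left out it stayed past the threshold, with adjusted p from 0.00207 to 0.0358. Per kilobase of contig its mean level rose from 2.61 to 12.3 CPM, from rank 13277 to rank 6381 among the components tested.

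The largest rise was that of comp1298_c0, of 1 contig of 640 bases. It stood at 5.42, 7.22 and 11.9 CPM in the controls, at 32.6, 34.0 and 29.1 CPM after the anterior wound, and at 48.4, 61.2 and 64.7 CPM after the posterior wound. All wounded libraries lay above all controls, and all posterior libraries lay above all anterior ones. From 8.19 ± 3.37 CPM (SD, n = 3) the mean rose to 45.0 ± 15.5 CPM (SD, n = 6). The log2 fold change was 2.45 (SE 0.34, edgeR adjusted p = 0.0411), and the 95% interval of the fold ran from 3.28 to 9.07. The call was lost with any 1 library left out except control replicate 3: adjusted p was 0.258 and 0.290 without control replicates 1 and 2, 0.0859, 0.0732 and 0.0579 without anterior replicates 1 to 3, and 0.161, 0.0870 and 0.0727 without posterior replicates 1 to 3. It was 0.0254 without control replicate 3.

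**Figure D1:**
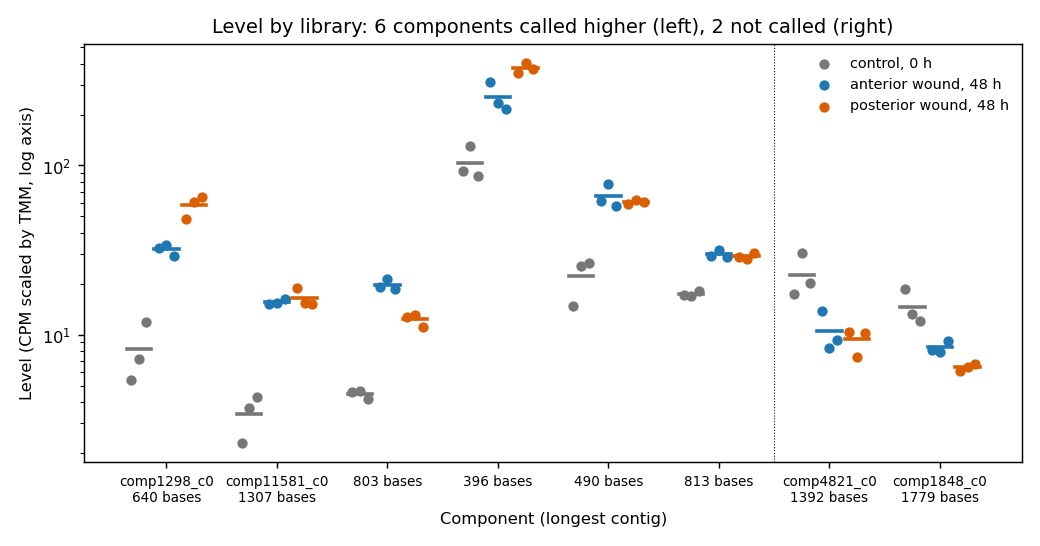
Level of the 6 components called higher and of the 2 named components that were lower but not called, in CPM scaled by TMM on a log axis. Each point is 1 library, coloured by group, and each bar is the mean of 3 libraries; at every component the 6 wounded libraries lie on 1 side of the 3 controls.

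The other 4 components called higher were also of 1 contig each. The component of 803 bases stood at 4.57, 4.64 and 4.18 CPM in the controls, at 19.1, 21.3 and 18.6 CPM after the anterior wound and at 12.8, 13.1 and 11.1 CPM after the posterior wound. The controls had an SD of 0.25 CPM (n = 3), and the anterior libraries lay above the posterior ones. The fold change was 1.84 on the log2 scale (SE 0.23, edgeR adjusted p = 0.0350). The most abundant of the 6, of 396 bases, stood at 93.1, 131 and 87.2 CPM in the controls, at 312, 233 and 217 CPM after the anterior wound and at 351, 403 and 369 CPM after the posterior wound. Here the posterior libraries were the higher ones. The log2 fold change was 1.60 (SE 0.22, edgeR adjusted p = 0.0411), and the mean level per kilobase rose from 262 to 794 CPM, from rank 372 to rank 152.

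The component of 490 bases rose from 14.8, 25.4 and 26.5 CPM to 61.4, 77.6 and 57.7 CPM after the anterior wound and 59.3, 62.9 and 60.5 CPM after the posterior wound. The sites overlapped, and anterior replicate 2 was the highest library. Its log2 fold change was 1.50 (SE 0.18, edgeR adjusted p = 0.0282). The smallest of the 6 rises was at the component of 813 bases. It stood at 17.1, 17.0 and 18.2 CPM in the controls, at 29.2, 31.8 and 28.7 CPM after the anterior wound and at 28.7, 27.9 and 30.6 CPM after the posterior wound. Replicates were tight in both groups, with a coefficient of variation of 3.95% in the controls and 4.98% in the wounded libraries. The log2 fold change was 0.76 (SE 0.11, edgeR adjusted p = 0.0411).

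Apart from comp11581_c0, no call held in every fit with 1 library left out. The number called was 2, 1 and 3 without control replicates 1, 2 and 3, then 1, 4 and 1 without anterior replicates 1, 2 and 3, and 1, 1 and 3 without posterior replicates 1, 2 and 3. Every one of these was among the 6, and each fit tested between 20595 and 22705 components. The component of 490 bases was called in 4 of these 9 fits (without control replicates 1 and 3, anterior replicate 2 or posterior replicate 3; adjusted p in the others up to 0.0889). That of 803 bases was called in 2 (without anterior replicate 2 or posterior replicate 3; otherwise up to 0.214). The one of 396 bases was called in 1 (without anterior replicate 2; otherwise up to 0.270), and that of 813 bases in 0 (adjusted p from 0.0727 to 0.378). In each of the 9 fits the library left out lay on its own group's side of the midpoint at every component called. The groups of all 9 libraries do not overlap at the 6 components, so this was nearly fixed in advance and is no independent check. All 6 rises kept their direction in all 25 alternative settings. As the groups did not overlap at these components, a reversal was hardly possible.

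**Figure D2:**
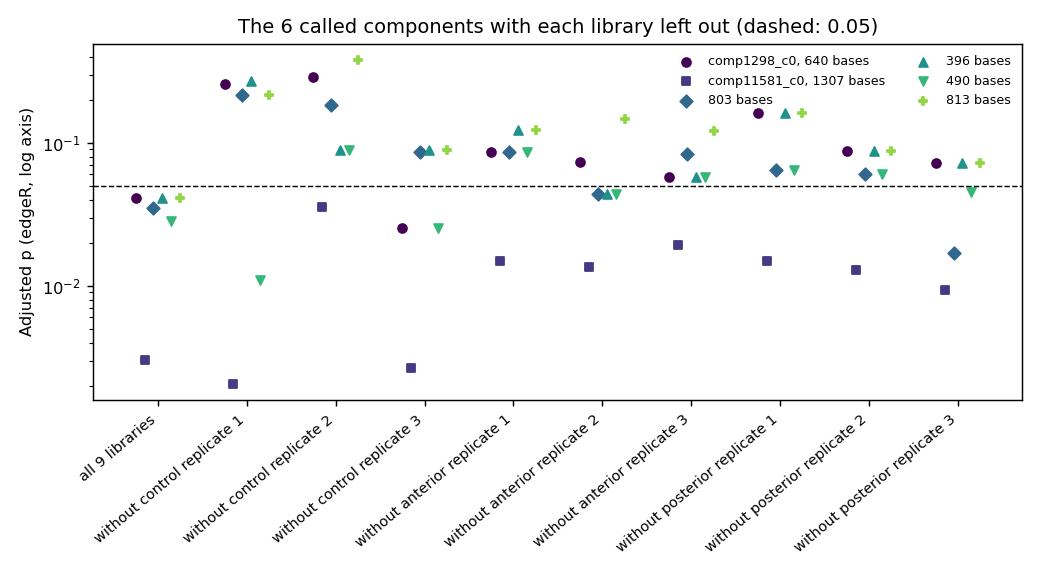
Adjusted p (edgeR, log axis) of the 6 called components with all 9 libraries and with each library left out, the dashed line marking 0.05. Each symbol is 1 component; comp11581_c0 lies under the line in all 10 fits, and the component of 813 bases only with all 9 libraries.

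Lower components outnumbered higher ones at an unadjusted p, and none was called by edgeR. At an unadjusted p under 0.05 by edgeR, 921 components (4.32%) were lower and 620 (2.91%) higher, 1541 (7.23%) in all. By chance alone a share of about 0.05, both directions together, would fall under that p. The balance turned in some settings, as without control replicate 3 (2404 higher, 1832 lower) and with replicate number as a block (965 higher, 938 lower). The lowest adjusted p of a lower component was 0.252. Of 20058 components tested, DESeq2 called 26 higher, including all 6, and 20 lower. Of 21322 tested, limma-voom called 2 higher and 0 lower, with 874 lower at an unadjusted p under 0.05. Groups did not overlap at 358 components (1.68%) that were higher and 466 (2.19%) that were lower. With a log2 fold of at least 1 as well, 51 were higher (0.239%) and 67 lower (0.314%). For the separation alone, 1 of the 84 ways to choose the controls gives each direction, a chance share of 0.0119.

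The lower component with the lowest p was comp4821_c0, of 1 contig of 1392 bases. It stood at 17.4, 30.3 and 20.1 CPM in the controls, at 13.8, 8.31 and 9.28 CPM after the anterior wound and at 10.4, 7.42 and 10.3 CPM after the posterior wound. No wounded library reached the lowest control; the highest was 0.793 of it. The log2 fold change was -1.19 (SE 0.21, edgeR adjusted p = 0.252), with a 95% interval from -1.65 to -0.73. The next, comp1848_c0, has 3 contigs, the longest of 1779 bases. It stood at 18.7, 13.2 and 12 CPM in the controls, at 8.12, 7.93 and 9.17 CPM after the anterior wound and at 6.14, 6.48 and 6.69 CPM after the posterior wound. Here the log2 fold change was -0.98 (SE 0.18, edgeR adjusted p = 0.279). Its 3 contigs, of 1779, 1765 and 1718 bases, gave like ratios of the wounded to the control mean, 0.513, 0.524 and 0.485. Both components passed in DESeq2 (adjusted p = 0.00337 and 0.00488), while over the 25 alternatives their adjusted p ran up to 1.

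**Figure D3:**
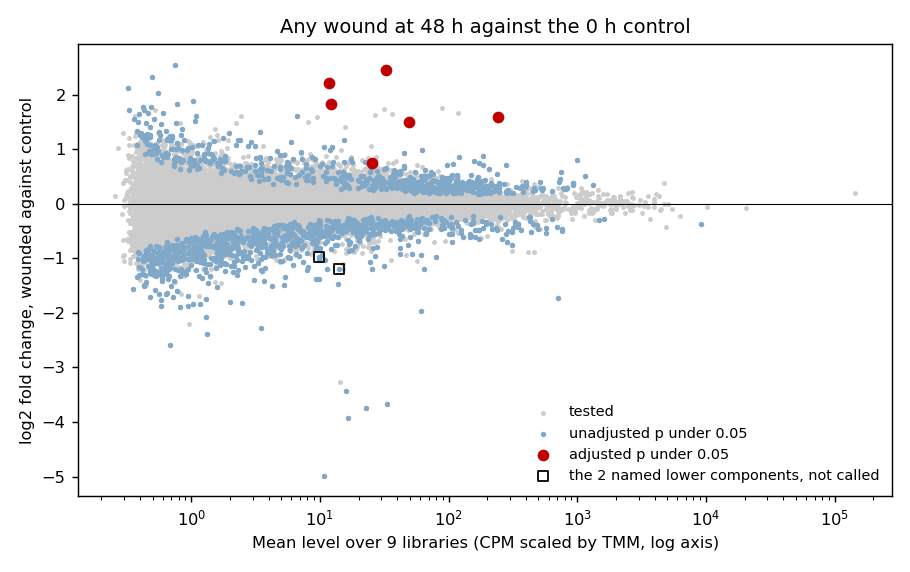
Log2 fold change of the wounded libraries against the controls for the 21322 components tested, by mean level over the 9 libraries (CPM, log axis). Grey points are components tested, blue points those at an unadjusted p under 0.05, red points the 6 called and open squares comp4821_c0 and comp1848_c0; the 6 called lie between log2 0.76 and 2.45.

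How the response divided between the wounds was read from a fit with 3 groups. Of the 6 components, 4 were called in the anterior comparison, 4 in the posterior comparison and 3 in both. Each comparison called 6 of the 21322 components tested (0.0281%). They share the 3 controls, and the 6 were chosen on these same libraries, so these counts are a description. For comp11581_c0 the log2 fold change was 2.18 (SE 0.23) after the anterior wound and 2.25 (SE 0.23) after the posterior wound. The difference between the sites, anterior minus posterior, was -0.07 with a 95% interval from -0.55 to 0.40. That interval was from -0.34 to 0.55 at the component of 490 bases and from -0.23 to 0.32 at that of 813 bases. At these 3 components a difference of 2-fold between the sites lies outside the interval.

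At the other 3 components the sites did not overlap. Such a separation of anterior from posterior libraries held at 9.62% of all components tested. The difference was -0.87 at comp1298_c0 (SE 0.24, interval from -1.40 to -0.34), with the posterior libraries higher. It was -0.56 at the component of 396 bases (SE 0.18, interval from -0.96 to -0.16), in the same direction. At the component of 803 bases it was 0.67 (SE 0.16, interval from 0.32 to 1.02), with the anterior libraries higher. None passed the adjustment over all components (edgeR adjusted p = 1.00 for each, with unadjusted p from 0.00141 to 0.0101). Between the sites 0 components (0%) were called in the 3-group fit, the lowest adjusted p was 0.904, and 581 (2.72%) had an unadjusted p under 0.05. An edgeR fit of the wounded libraries alone called 4, none of them among these 3. There the adjusted p was 0.0968 at comp1298_c0, 0.485 at the component of 396 bases and 0.268 at that of 803 bases.

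**Figure D4:**
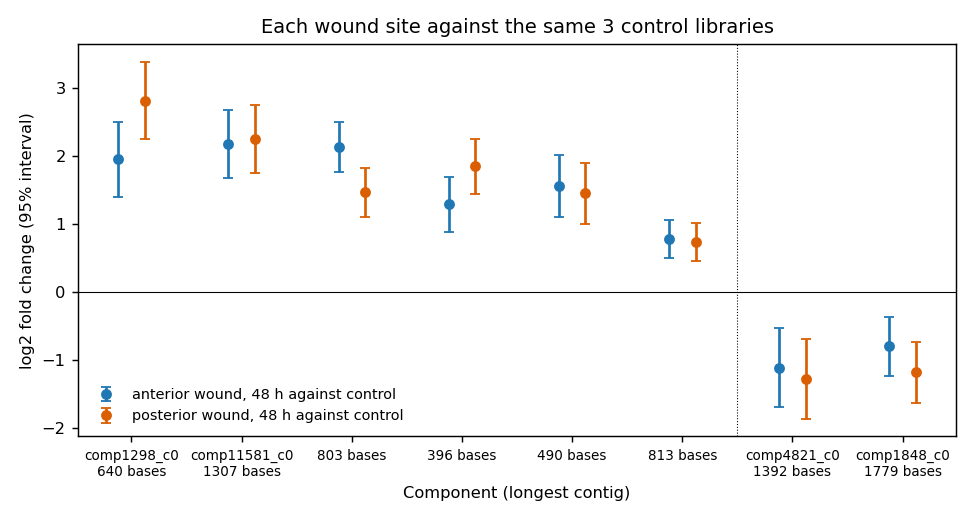
Log2 fold change of each wound site against the same 3 control libraries, with 95% intervals from the 3-group fit (n = 3 a group), for the 6 called components and the 2 lower ones. The sites lie close together at comp11581_c0 (2.18 and 2.25) and apart at comp1298_c0 (1.95 and 2.82) and at the components of 803 and 396 bases.

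Control replicate 3 and anterior replicate 2 often lay on the other group's side at components called with both of them removed. With 1 of them removed alone this was not seen. Control replicate 3 was on its own side at all 3 components called without it, and anterior replicate 2 at all 4. With both removed, a setting chosen with earlier results of these libraries known, 419 components (1.89% of 22221) were called higher and 46 (0.207%) lower. The 6 were among them. Those 465 calls rest on 2 control and 5 wounded libraries. At 444 of the 465, control replicate 3 lay nearer to the mean of the wounded libraries than to that of the other controls; it was on the controls' side at 21 (4.52%). Anterior replicate 2 lay on the wounded side at 162 (34.8%). The 465 were called with these 2 libraries absent, which favours components at which they differ from their groups. The same shares over all 22221 components were not computed, so the counts describe the 465 alone. Among the 419 higher components, control replicate 3 was on its own side at 11 and anterior replicate 2 at 124; among the 46 lower ones these numbers were 10 and 38. With control replicate 1 and posterior replicate 3 removed, 2 components were called (0.00891% of 22443), both higher and both among the 6.

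The balance of higher and lower components, at an unadjusted p, moved with their level; the difference between level classes was not tested. Among the 4218 components of at least 32 CPM, 312 were higher and 163 lower at an unadjusted p under 0.05 (7.40% and 3.86%). Among the 13235 under 8 CPM, 214 were higher and 551 lower (1.62% and 4.16%). Over all components, lower ones made up 59.8% of those at an unadjusted p under 0.05. That share was 43.2% without control replicate 3, where 2404 were higher and 1832 lower. Of the components of at least 32 CPM, lower ones made up 34.3%, and between 18.8% (without control replicate 1) and 42.9% (without posterior replicate 3) with 1 library left out. Among those under 8 CPM they made up 72.0%, and between 53.2% (without control replicate 3) and 77.7% (without posterior replicate 2) with 1 library left out. With control replicate 3 and anterior replicate 2 both removed they were the smaller part, 45.8% (1006 higher and 851 lower). By mean level over the 9 libraries, 3 of the 6 called components lay between 8 and 32 CPM, 2 between 32 and 128 CPM and 1 above. The rise itself lifts that mean. In the controls comp11581_c0 averaged 3.42 CPM and comp1298_c0 8.19 CPM, each in a lower class. So did the components of 803 bases (4.46 CPM), 490 bases (22.2 CPM) and 396 bases (104 CPM). Only the component of 813 bases, at 17.4 CPM, stayed in its class.

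Among long transcripts, lower ones outnumbered higher ones at an unadjusted p; the difference between length classes was not tested. Of the 1180 components with a contig of 3000 bases or more, 107 were lower (9.07%) and 14 higher (1.19%) at an unadjusted p under 0.05, with a median log2 fold change of -0.12. Of the 6876 under 500 bases, 196 were lower (2.85%) and 152 higher (2.21%). This balance turned with 1 library left out: 90 were lower and 105 higher without control replicate 1, 515 and 722 without control replicate 3, and 138 and 155 without anterior replicate 2. The median length was 1254 bases among the lower components, 916.5 among the higher, 721.5 among the 6 called and 754 among all tested. Long components also moved within groups. Their median deviation from the mean of the 9 libraries, on the log2 scale, was 0.24, 0.12 and -0.13 in control replicates 1 to 3. Among the wounded libraries the extremes were -0.25 (posterior replicate 3) and 0.14 (posterior replicate 2), so the groups overlapped. Contigs over 3000 bases took 9.84% ± 1.69 of mapped reads (SD, n = 3) in the controls and 9.24% ± 1.23 (SD, n = 6) in the wounded libraries (exact permutation p = 0.536). Without control replicate 1 there were 32 lower and 9 higher among the long components, and without control replicate 3 there were 307 and 29. With control replicate 1 and posterior replicate 3 both removed, 25 were lower and 16 higher. The part of library differences in contig length in these counts was not tested.

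**Figure D5:**
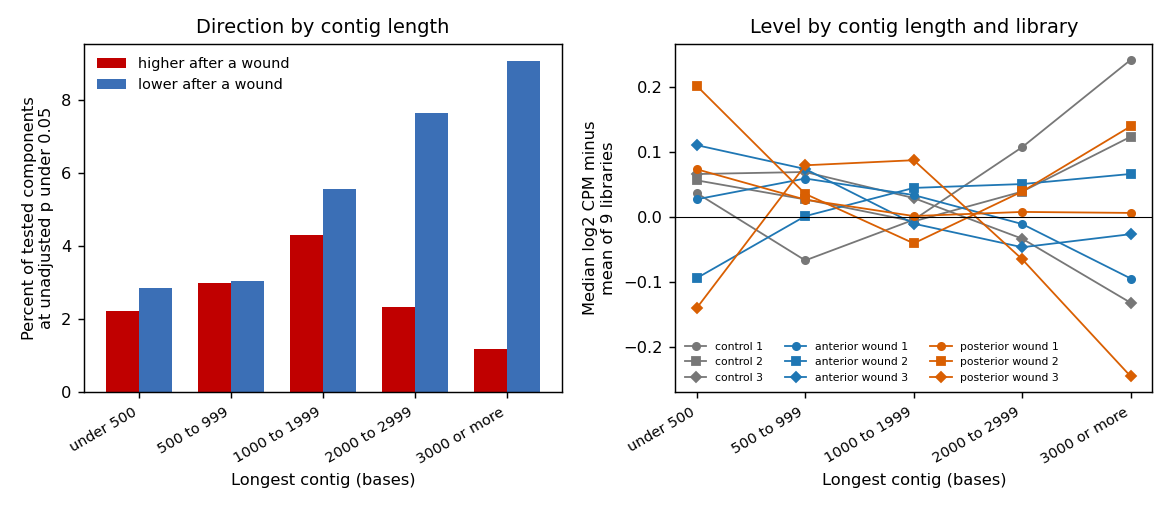
Left, the percent of tested components at an unadjusted p under 0.05 (edgeR) that were higher or lower after a wound, by length of the longest contig. Right, the median log2 level of each length class in each library, less the mean of the 9 libraries; in the longest class control replicate 1 (0.24) and posterior replicate 3 (-0.25) lie at the ends, and the groups overlap.

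Few transcripts were seen in 1 group alone, and those had few reads. Of all 46724 components, 10 had 0 reads in all 3 controls and at least 1 in each of the 6 wounded libraries. The most abundant of them had 11 reads in all, between 1 and 3 in a library. Another 13 had 0 reads in all wounded libraries and at least 1 in each control, with at most 12 reads in all. The groups differ in size, so the counts of the directions are not compared. None in either direction reached 5 reads in every library of a group.

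The precision of the comparison followed the level of a transcript. Above 128 CPM, 97.6% of 1114 components had a 95% interval of the log2 fold change within -1 and 1, so that a change of 2-fold lay outside it. Between 8 and 32 CPM this held for 87.5% of 3869 components, with a median SE of 0.17. Under 1 CPM it held for 17.3% of 6358, with a median SE of 0.44, and over all components for 59.5%.

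The authors tested each wound by itself. In the authors' deposited table of DESeq results, comp11581_c0 had a fold of 4.64 (adjusted p = 1.79e-10) after the anterior wound and 4.75 (adjusted p = 7.98e-11) after the posterior wound. For comp1298_c0 the authors' deposited table gives 3.94 (adjusted p = 8.07e-10) and 6.96 (adjusted p = 4.53e-21). Of the 6 components, 5 passed 0.05 for both wounds in the authors' deposited table, and that of 813 bases for neither, with folds of 1.74 and 1.64 and an adjusted p of 1 for each. For comp4821_c0 the folds in the authors' deposited table were 0.471 and 0.410 (adjusted p = 1 and 0.229), and for comp1848_c0 they were 0.584 and 0.453 (adjusted p = 1 and 0.0658). At components of several contigs, comp1848_c0 among them, the authors' deposited sums repeat posterior replicate 2 in the last posterior column. Whether the DESeq results were made from those sums was not tested.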

How the data were processed

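Poly(A) RNA libraries were made with an Illumina kit, per the labels. Bowtie2 2.0, SAMtools and DESeq appear in the submitters' processing notes; the assembly and the counting are not given in the sources used here. The authors deposited raw read counts per contig for each library with the contig length. Contigs were summed to components here (46724 from 63423 contigs). The authors' deposited table gives, per the file headers, a ratio (fold change) and an adjusted p-value for each wound. In the authors' deposited summed counts, 8 of 9 columns equal the sums made here; in the last posterior column all 7189 components of several contigs repeat posterior replicate 2, so that table served only as an alternative. Columns left without a sample or group numbered 0.

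Counts were tested with edgeR 4.0.16 (R 4.3.3): TMM scaling, filterByExpr (minimum count 10 in at least 3 libraries), which kept over 99% of reads, and a quasi-likelihood fit of 2 groups (6 wounded, 3 control). The fit of 3 groups gave the sites. The SE was taken as the log2 fold change over the square root of F. Log2 levels used a prior count of 2. The test was tried on simulated data. Counts of replicates differed beyond sampling noise (chi-square over its degrees of freedom 5.66 to 56.2), so none was counted as a repeat. Nothing in the labels ties replicates to separate animals; p-values then reflect only the spread among these libraries, possibly technical. The number of reads limits the precision, and intervals cover the spread between libraries only.

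Named were, among calls with a mean of 2 CPM or more in 1 group and whose groups did not overlap, the 2 largest rises and falls; with no falls called, the 2 lowest p. The members, lists and alternatives were chosen with earlier results of these data known. The gene lists (neoblast, replication, mitosis, wound, position, lineage, other cell types, housekeeping) matched 0 components, as the files hold no names. Alternatives were other scalings, filters, DESeq2 1.42.0, limma-voom (limma 3.58.1), a replicate block, contigs unsummed, a minimum fold, the deposited sums, and libraries left out. Left-out fits for length and level were added after seeing the data.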

Additional observations from a re-analysis of the deposited data

Results flagged for a closer look

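Among 14 sets of values over the 6 wounded libraries that were checked for 1 library standing off from the rest, 2 had one; chance alone flags about 1 in 20 such sets. At comp11581_c0, posterior replicate 1 stood at 18.8 CPM, and the gap to the next library was 0.657 of the range of the wounded libraries. At the called component of 490 bases, anterior replicate 2 stood at 77.6 CPM, with a gap of 0.738 of the range. Both are the highest library of a group that lies above all controls. Without the library concerned the log2 fold change of the component of 490 bases was 1.45 (adjusted p = 0.0437).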

How the results depend on the processing

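Against the 6 components called of 21322 tested, upper quartile scaling gave 3, DESeq2 46 (of 20058 tested), limma-voom 2 and the replicate block 2. A minimum log2 fold of 1 gave 0 (edgeR, with 21 higher and 29 lower at an unadjusted p under 0.05). Removing control replicate 3 with anterior replicate 2 gave 465, and removing control replicate 1 with posterior replicate 3 gave 2. With 1 library left out the count ran from 1 to 4. The 9 remaining settings gave 4 to 8. The cause was not tested for any of these. The fit of the wounded libraries alone called 4 between the sites, against 0 in the 3-group fit. With each library left out of the 3-group fit the count was 0. At 5 reads in every library, components seen in 1 group only were 0 and 0, against 10 and 13. The replicate numbers did not mark pairs throughout. Libraries of the same number correlated above 0.1 in 3 of 9 pairs (range -0.24 to 0.451), and 4 of 9 libraries had their highest correlation with their own number. The highest correlations of any pair were nevertheless between control and posterior replicates 3 (0.451) and control and posterior replicates 2 (0.346). Whether some libraries were paired was not tested. With the block, 965 components were higher and 938 lower at an unadjusted p under 0.05, against 620 and 921. The median log2 fold change of all components was -0.03, and -0.07 with upper quartile scaling. Over the 25 alternatives comp11581_c0 was called in 24 (log2 2.01 to 2.42), the component of 490 bases in 18, that of 803 in 13, comp1298_c0 in 12, that of 396 in 10 and that of 813 in 5. comp4821_c0 and comp1848_c0 were called in 2 each, DESeq2 and the removal of control replicate 3 with anterior replicate 2. The gene lists could not be run for want of names.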

Other observations

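The steepest log2 fold changes of the comparison belonged to 6 lower components, from -4.98 to -3.27, none of them called (lowest edgeR adjusted p = 0.644) and none with groups that did not overlap. Their summed level was 882 CPM in control replicate 2 and 104 CPM in anterior replicate 2. In the other 7 libraries it was between 0.819 CPM (control replicate 3) and 12.5 CPM (posterior replicate 3). The set was chosen after its values were seen.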
